A study of Arabidopsis thaliana with 90 samples.

Results

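The 10 genes described here encode Aux/IAA proteins of Arabidopsis thaliana. They are IAA1 (AT4G14560), IAA2 (AT3G23030), IAA3 (AT1G04240), IAA4 (AT5G43700), IAA5 (AT1G15580), IAA6 (AT1G52830), IAA7 (AT3G23050), IAA14 (AT4G14550), IAA17 (AT1G04250) and IAA19 (AT3G15540). They were taken by gene identifier and by no measured value, and are 10 of the 29 Aux/IAA genes listed and 10 of 27444 nuclear protein-coding genes. The 10 genes are 986 to 2586 bp long, and each was read together with 500 bp on each side. A gene was called for a feature when a peak overlapped this window by at least 1 bp in all 3 libraries of the feature.

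Aux/IAA proteins are short-lived nuclear repressors of the response to auxin, the plant hormone of growth and patterning. They bind the auxin response factors (ARFs) and recruit TOPLESS corepressors, and auxin brings them to the TIR1/AFB receptors, which mark them for degradation. Many Aux/IAA genes are themselves early targets of auxin, which closes a feedback loop. Several were found through stabilising mutations, among them IAA3 (SHY2), IAA7 (AXR2), IAA14 (SLR, whose stabilised form blocks lateral roots), IAA17 (AXR3) and IAA19 (MSG2, known for hypocotyl bending).

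Chromatin immunoprecipitation sequencing (ChIP-seq) gave lists of peaks from whole 9-day-old seedlings of the Col-0 wild type, grown on MS medium in continuous white light. Total RNA polymerase II (Pol II), its Ser2-phosphorylated form (Ser2P, of elongation), its Ser5-phosphorylated form (Ser5P, of early transcription), H3K4me1, H3K4me2, H3K4me3, the histone variant H2A.Z, the COMPASS subunit WDR5A-HA, the DREAM complex protein BTE1 and the transcription factor E2FA were each precipitated in 3 biological replicates. WDR5A-HA was precipitated through its HA tag, although the label gives the genotype as Col-0. The TATA-binding protein TBP came as a single list of regions without replicates. The 30 libraries used held 1395 to 27094 peaks each. A peak list holds no read total, so depth was unknown. Mutant, input and control libraries were not analysed here, nor were the wild-type libraries of H3K27me3 and MH-seq that the series also holds. In whole seedlings, occupancy in few cells and weak occupancy in many cells cannot be told apart.

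TBP and Pol II were found at most of the 10 genes. TBP is a protein of sites where transcription starts. Its regions touched the windows of 9 of the 10 genes, all but IAA17, against 57.7% of all genes. At IAA6 the region lay beside the gene and not in it, and with the gene body alone 8 genes were touched. The share of all genes under the gene-body rule was not counted. At IAA1, IAA2, IAA3 and IAA4 the region ran past both gene ends, so it does not place a start site there. Total Pol II was called at 7 genes, against 46.7% of all genes, and had no peak in any library at IAA5, IAA6 and IAA19. Ser2P was called at 7 genes, all but IAA6, IAA17 and IAA19, against 47.6% of all genes. Ser5P was called at 8 genes, all but IAA6 and IAA17, against 45.9% of all genes. With so few genes these counts are descriptions, and no test was made over the list.

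**Figure D1:**
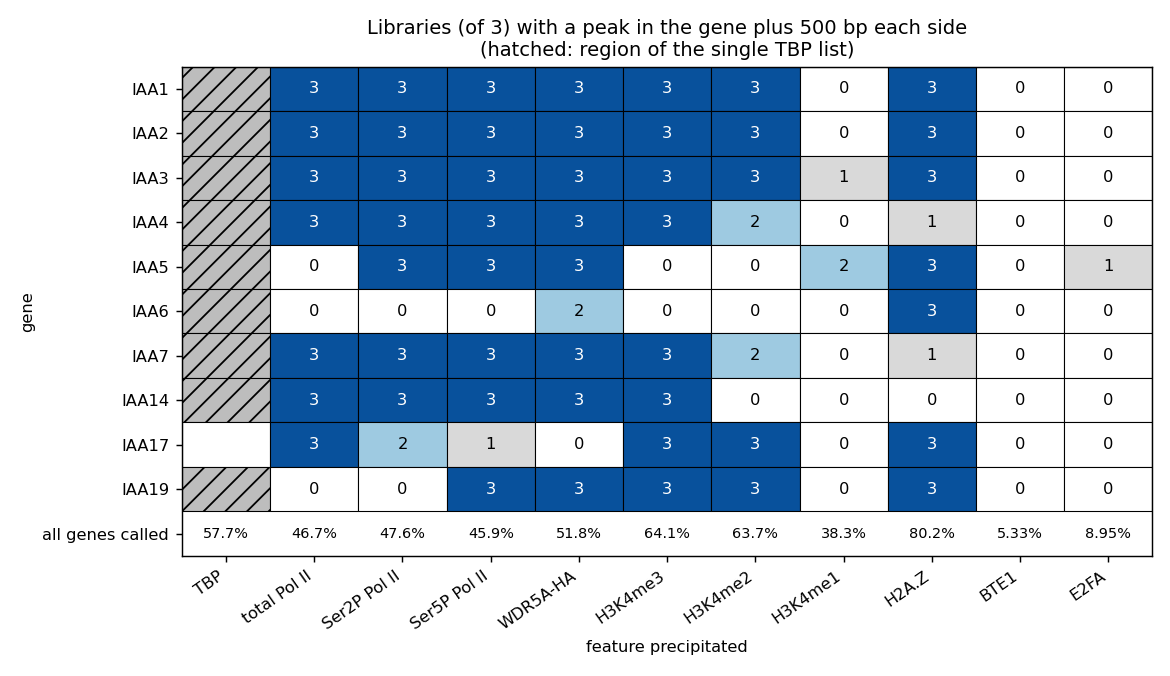
Number of libraries out of 3 with a peak at each Aux/IAA gene (rows) for each feature (columns), with the share of all 27444 genes called in the bottom row. TBP is a single list, and hatched cells have a region. H3K4me1, BTE1 and E2FA reach 3 libraries at none of the 10 genes.

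By these calls the Pol II forms divided the genes into a group of 6 with all forms and a group of 4 with some or none. IAA1, IAA2, IAA3, IAA4, IAA7 and IAA14 carried total, Ser2P and Ser5P Pol II, as did 38.7% of all genes. The Ser2P summits at IAA1 and IAA4 lay beyond the gene end. With peaks above the median score, Ser2P was called at IAA2, IAA4 and IAA7 alone, against 28.4% of all genes. IAA6 carried no form, as did 44.8% of all genes. The other 3 had rarer combinations. IAA19 carried Ser5P alone, which was the case at 745 genes or 2.71%, IAA5 carried Ser2P and Ser5P without total Pol II (2.08%), and IAA17 carried total Pol II alone (2.4%). IAA17 missed the Ser2P call through replicate 1, since replicates 2 and 3 had Ser2P peaks with folds of 2.68 and 3.36. Without replicate 1 the Ser2P calls were 8, IAA17 included, and the share of all genes was not counted for that rule. A Ser5P peak stood at IAA17 in replicate 3, with a fold of 2.87.

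IAA2, IAA4 and IAA7 had the highest total Pol II folds of the 10. Fold here is the enrichment that the authors' peak caller gave a peak. It is set beside other values only within its own list, as the percentile of a gene among all genes with a peak in that library. At IAA4 the total Pol II fold was 10.3, 9.86 and 12.6 in replicates 1, 2 and 3, a percentile of 96.6 ± 1.01 (mean ± SD, n = 3). At IAA2 it was 10.1, 10.3 and 11.6, a percentile of 96.4 ± 0.254 (SD, n = 3), and the peak of replicate 3 spanned chr3:8180061-8182135 (TAIR10). At IAA7 the folds were 8.59, 8.88 and 8.43, a percentile of 92.4 ± 1.30 (SD, n = 3). The libraries of IAA4 and IAA2 overlapped, and every library of IAA7 lay below every library of both. Peaks of total Pol II covered 98.6% ± 1.21 of IAA2, 98.4% ± 2.74 of IAA4 and 97.8% ± 1.53 of IAA7 (SD, n = 3).

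IAA14, IAA3 and IAA1 came next and were not separated by their spread. Their total Pol II percentiles were 72.8 ± 8.22, 67.1 ± 11.8 and 61.7 ± 7.19 (SD, n = 3). IAA17 stood at 38.8 ± 14.2 (SD, n = 3), with folds of 2.90, 3.39 and 3.85, and Pol II peaks covered 35.5% ± 11.7 of the gene. All of its libraries lay below those of IAA14, IAA3 and IAA1. Neighbours share some of these peaks. At IAA14 the total Pol II summit of replicate 3, at -224 bp, lay outside the gene in the non-coding AT4G14548. The Ser2P summit of replicate 3, at -417 bp, lay there too. The total Pol II summits of IAA3, at 190 to 253 bp from the gene end of lower coordinate, lie where the gene overlaps AT1G04230. Of the 3 total Pol II summits at IAA1, 1 lay in the gene, 1 between the genes and 1 in AARE (AT4G14570), a peptidase gene next to it. All 3 Ser2P summits at IAA1 lay beyond its end, at 1112 to 1261 bp in a gene of 1038 bp, so its Ser2P call cannot be told apart from that of AARE.

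**Figure D2:**
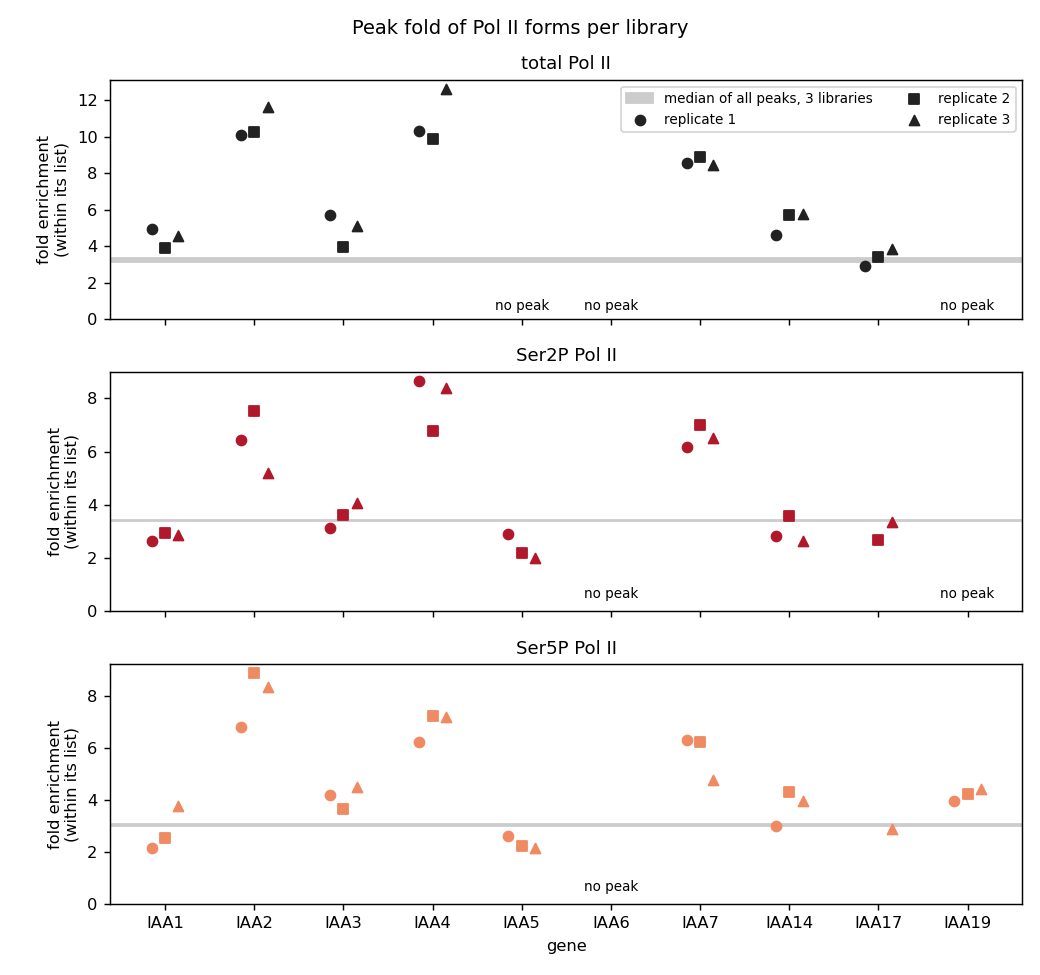
Peak fold of total Pol II, Ser2P and Ser5P (panels, linear axis from 0) at each Aux/IAA gene, 1 point per replicate. The grey band spans the median fold of all peaks in the 3 lists. IAA2, IAA4 and IAA7 lie above the band in every library of every form, and IAA19 has points for Ser5P alone.

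The same 3 genes ranked highest for both phosphorylated forms, in another order. Ser2P percentiles were 91.4 ± 5.15 at IAA4, 84.2 ± 2.40 at IAA7 and 81.3 ± 10.6 at IAA2 (SD, n = 3), which overlapped. Ser5P percentiles were 96.8 ± 1.66 at IAA2, 93.9 ± 1.60 at IAA4 and 86.7 ± 8.84 at IAA7 (SD, n = 3). At IAA4, a gene of 1537 bp, the summits of both forms lay beyond the end of higher coordinate, on the side of AT5G43710. They stood at 1545, 1647 and 1577 bp for Ser2P and at 1557, 1629 and 1598 bp for Ser5P, in no gene. With summits required inside the gene, IAA4 was called for neither form. IAA5 lay near the bottom in both, at 10.3 ± 11.1 for Ser2P and 11.05 ± 6.77 for Ser5P (SD, n = 3).

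IAA19 had a Ser5P peak just outside one gene end and no Ser2P or total Pol II peak in any library. Its Ser5P folds were 3.96, 4.23 and 4.40, a percentile of 67.4 ± 4.01 (SD, n = 3), each above the median fold of its list. The summits lay at -107, -129 and -137 bp. Positions count from the gene end of lower coordinate, and negative ones lie outside the gene. That end is the 5′ end as inferred from H3K4me3 and H2A.Z, since the gene table used gives no strand. The WDR5A-HA summits, at -119, -126 and -117 bp, fell in the same place. A TBP region at chr3:5263610-5264376 covered them and crossed the gene end, from -391 to 375 bp. Of the genes with Ser5P alone, 93.8% also carried WDR5A-HA and 93.4% TBP, against 85.4% and 95.8% of the genes with all 3 forms. IAA19's calls over all 11 features were shared by 233 genes, 0.849% of all.

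IAA5 resembled IAA19 in having WDR5A-HA and Ser5P summits outside the inferred 5′ end, which at IAA5 is the end of higher coordinate. The gene is 986 bp long, and its TBP region, from 936 to 1540 bp, crossed this end. Its WDR5A-HA summits lay at 1191, 1174 and 1151 bp, and 1 Ser5P summit of each library lay at 1258, 1180 and 1232 bp. In replicate 2 a second and higher Ser5P peak had its summit at 207 bp. Ser2P summits lay inside the gene, at 233, 366 and 339 bp, near the inferred 3′ end. No library had an H3K4me2 or H3K4me3 peak at IAA5.

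**Figure D3:**
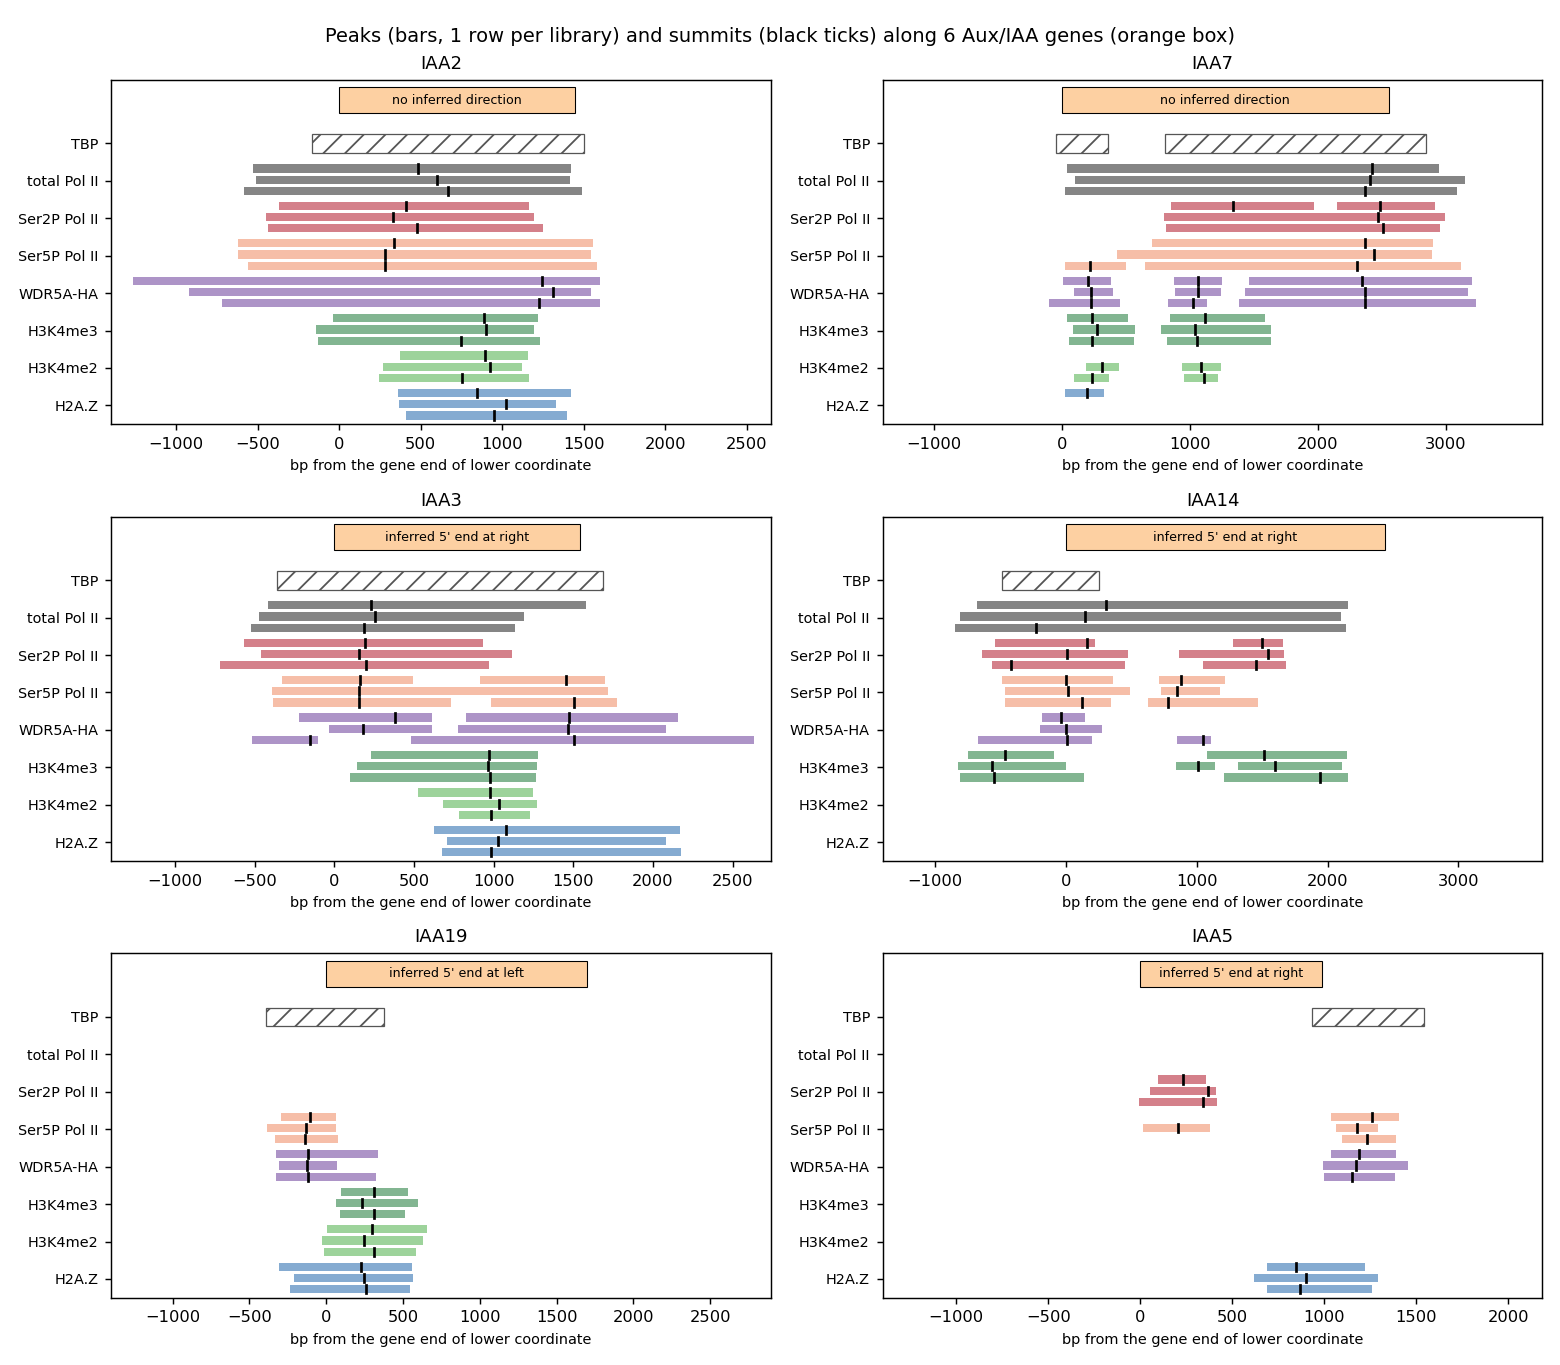
Peaks that touch the window of 6 Aux/IAA genes, with distance in bp from the gene end of lower coordinate (x axis) and 1 bar per library for each feature (rows). Black ticks are summits, hatched boxes TBP regions and orange boxes genes. At IAA19 the Ser5P and WDR5A-HA summits lie at -107 to -137 bp, outside the gene, and the H3K4me3 summits at 230 to 312 bp, inside it.

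Ser2P and Ser5P summits were compared by position, which addresses where along a gene the elongating form peaks relative to the early form. A limma fit over 10014 genes with both in all 6 libraries called 619 genes, 6.18% (Benjamini-Hochberg adjusted p below 0.05). None of the 7 members fitted was called. The Ser2P summit of IAA7, at 2484, 2473 and 2508 bp, stood against a Ser5P summit at 2371, 2438 and 2306 bp, a difference of 117 ± 38.2 bp (SE, limma adjusted p = 0.223). The groups did not overlap, with every Ser2P summit at the higher coordinate. At IAA3 the difference was -855 ± 400 bp (SE, limma adjusted p = 0.334), and at IAA5 it was -586 ± 316 bp (SE, limma adjusted p = 0.391). In both genes this lies toward the inferred 3′ end. At IAA3 the 3 Ser2P summits, at 193, 156 and 199 bp, lay where the gene overlaps AT1G04230, so they cannot be told apart from summits of that gene. For both, replicate 2 decided the call, since its highest Ser5P peak lay at the 3′ side. Without replicate 2 the differences were -1282 bp (limma adjusted p = 0.000981) and -959 bp (limma adjusted p = 0.0076).

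H3K4me3, the mark of active gene starts, was called at 8 of the 10 genes, all but IAA5 and IAA6, against 64.1% of all genes. Its folds were low for marked genes. Among the 8, the median percentile was 15.1. IAA4 had the highest, with folds of 6.57, 8.51 and 8.62 and a percentile of 64.7 ± 26.0 (SD, n = 3), and IAA19 the lowest, with folds of 2.85, 3.49 and 2.89 and a percentile of 5.73 ± 2.86 (SD, n = 3). IAA2 stood at 34.3 ± 12.4, and IAA1, IAA7, IAA3, IAA17 and IAA14 between 12.2 and 19.3. At IAA1 and IAA14 the highest H3K4me3 peak had its summit in the neighbouring gene. For IAA14 this was the non-coding AT4G14548, and the peaks summiting in IAA14 itself reached only 2.91, 2.65 and 2.95.

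The low H3K4me3 rank stood beside a high Pol II rank at several of these genes, a pairing picked out after the values were seen. At all 7 genes with both features the H3K4me3 percentile was below the total Pol II percentile, which was so at 47.7% of the 11341 genes with both. For IAA1 and IAA14 the H3K4me3 value is that of a peak with its summit in a neighbouring gene. For IAA3 the total Pol II summits lie where it overlaps AT1G04230. At IAA1 the total Pol II summits of replicates 1 and 3 lay beyond the gene end, and at IAA14 that of replicate 3 lay in AT4G14548. The gap was widest at IAA7, with an H3K4me3 percentile of 16.6 ± 6.42 (SD, n = 3) against 92.4 for total Pol II. Of all genes with both, 0.979% had a more negative gap than IAA7 and 3.07% one more negative than IAA2. Over the genes between the 90th and 100th percentile of total Pol II, the median H3K4me3 percentile was 67.8, with quartiles of 48.8 and 83.7. IAA4 lay within these quartiles, and IAA2 and IAA7 below them.

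**Figure D4:**
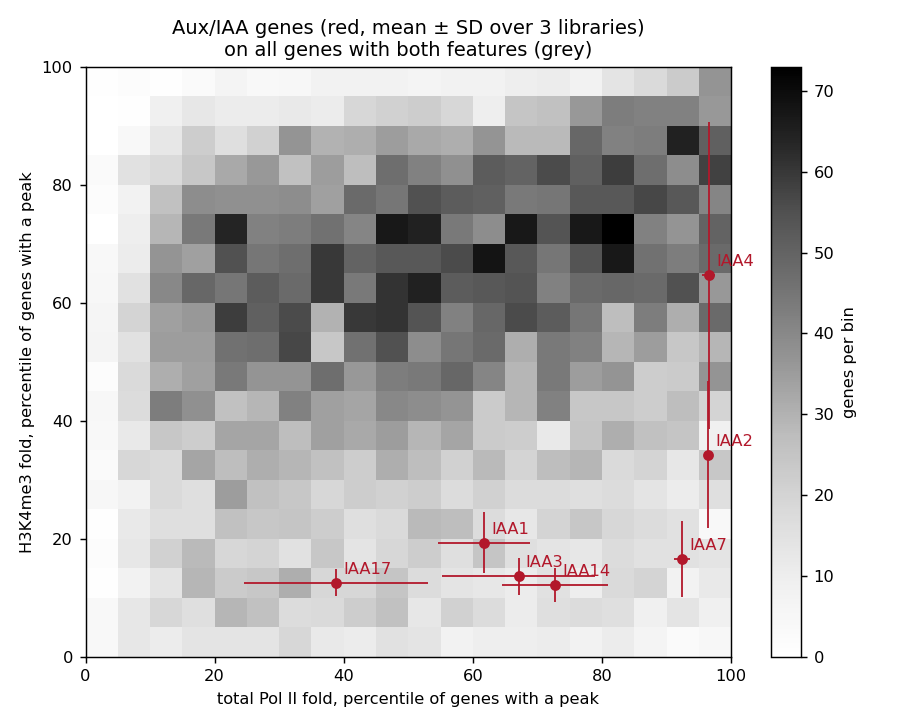
Percentile of the H3K4me3 fold (y axis) against percentile of the total Pol II fold (x axis) for the 7 Aux/IAA genes with both (red, mean ± SD over 3 libraries), over the density of 11341 genes with both (grey, genes per bin of 5 percentiles). IAA7, IAA2 and IAA14 lie low and to the right, and IAA4 lies within the bulk of genes of high Pol II. The H3K4me3 summits of IAA1 and IAA14 lie in neighbouring genes.

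H3K4me1, which lies along the bodies of many long, steadily transcribed genes, was called at none of the 10 genes, against 38.3% of all genes. Peaks in single libraries belonged to neighbours. At IAA3, 1 library had a peak with its summit in AT1G04230, and at IAA5, 2 libraries had one with its summit in CYCA2;3 (AT1G15570), a cyclin gene. Gene length moves with this mark. Of 13627 genes between the shortest and the longest of the 10, 27.9% were called for H3K4me1, against 68.6% of the 9555 longer genes. Of the 5006 genes in this length range with all 3 Pol II forms, 43.1% carried it, and none of the 6 Aux/IAA genes with all 3 forms did. Above the 90th percentile of total Pol II the share over all genes was 34.4%. How far length and Pol II level account for the absence was not tested.

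H3K4me2 and H2A.Z split the genes differently from Pol II. H3K4me2 was called at 5 genes, IAA1, IAA2, IAA3, IAA17 and IAA19, against 63.7% of all genes. It ranked highest at IAA19, with folds of 4.49, 5.56 and 5.28 and a percentile of 92.9 ± 6.56, and at IAA17, with a percentile of 85.1 ± 9.72 (SD, n = 3). These were 2 of the genes without full Pol II occupancy. H2A.Z was called at 7 genes, against 80.2% of all genes. The 3 not called, IAA4, IAA7 and IAA14, all carried every Pol II form, and H2A.Z was in 1 library at IAA4 and IAA7 and in none at IAA14. IAA6 was called for H2A.Z and for no other replicated feature, WDR5A-HA having weak peaks in 2 libraries. Its H2A.Z peaks had folds of 3.44, 2.85 and 3.74 and a percentile of 30.9 ± 10.6 (SD, n = 3). The TBP region at IAA6 lay at -735 to -344 bp, on the side of AT1G52827 and away from the inferred 5′ end.

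WDR5A-HA, a subunit shared by the complexes that write H3K4 methylation, was called at 8 of the 10 genes, all but IAA6 and IAA17, against 51.8% of all genes. It was highest at IAA2, with folds of 5.99, 6.45 and 5.92 and a percentile of 98.4 ± 0.788 (SD, n = 3). IAA3 followed at 92.3 ± 2.96, IAA7 at 89.6 ± 2.47, IAA19 at 86.1 ± 4.10 and IAA4 at 83.7 ± 7.43 (SD, n = 3). Adjacent genes in this order had overlapping libraries except that all libraries of IAA2 lay above all of IAA3. IAA1 (60.3 ± 11.7), IAA5 (47.7 ± 8.61) and IAA14 (28.6 ± 19.7) were lower. WDR5A-HA percentiles were high at strongly occupied genes in general, with a median of 88.5 above the 90th percentile of total Pol II. The 5 genes IAA1, IAA4, IAA5, IAA14 and IAA19 had at least 1 of their highest WDR5A-HA summits outside the gene, and with summits required inside the gene only IAA2, IAA3 and IAA7 stayed called, against 25.8% of all genes.

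WDR5A-HA and H3K4me3 summits were compared in the same way. The limma fit over 11344 genes called 7288, 64.2%, and 5 of the 7 Aux/IAA genes fitted, a share near that of all genes. At IAA19 the WDR5A-HA summits lay outside the inferred 5′ end and the H3K4me3 summits at 312, 230 and 308 bp inside, a difference of -404 ± 28.0 bp (SE, limma adjusted p = 0.00013). At IAA3 the WDR5A-HA summits, at 1472, 1468 and 1504 bp of a 1541-bp gene, stood against 969, 963 and 975 bp for H3K4me3, a difference of 512 ± 17.4 bp (SE, limma adjusted p = 6.98e-06). In both genes the WDR5A-HA summit lay nearer the inferred 5′ end, a direction that itself rests on H3K4me3.

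At IAA7 the marks separated over a longer distance. WDR5A-HA had its highest summit at 2347, 2373 and 2372 bp, where total Pol II also peaked, and the H3K4me3 summits lay at 1119, 1043 and 239 bp. The difference was 1564 ± 258 bp (SE, limma adjusted p = 0.00431). WDR5A-HA had 2 further, lower peaks in every library, with summits at 203 to 232 bp and 1023 to 1063 bp, next to both H3K4me3 peaks. IAA2 had a difference of 417 ± 52.7 bp (SE, limma adjusted p = 0.00151), but with peak midpoints in place of summits it was -250 bp (limma adjusted p = 0.0331). IAA1 had -1360 ± 25.7 bp (SE, limma adjusted p = 6.16e-07), where the H3K4me3 summit lay in AARE. Lower WDR5A-HA peaks of replicates 2 and 3 at IAA1 had summits at 1091 and 1053 bp. At IAA4 (515 ± 527 bp, limma adjusted p = 0.423) and IAA14 (-1032 ± 689 bp, limma adjusted p = 0.24) the summits of both features overlapped between libraries. The IAA4 call turned on replicate 3 (without it 1042 bp, limma adjusted p = 0.0134) and that of IAA14 on replicate 1 (without it -1764.5 bp, limma adjusted p = 0.00455). The H3K4me3 peak that entered the IAA14 fit was not the same in all libraries. In replicate 1 it was the AT4G14548 peak, with its summit at -467 bp. In replicates 2 and 3 the summits of that peak, at -562 and -552 bp, lay outside the window, and lower peaks in IAA14 itself entered, at 1600 and 1942 bp.

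IAA14 and IAA17 were arranged otherwise than IAA3 and IAA19. At IAA14 the WDR5A-HA summits of -34, 4 and 9 bp, the Ser5P summits of 0, 20 and 126 bp and the TBP region chr4:8347331-8348072 all lay at the end of lower coordinate, next to AT4G14548. H3K4me3 inside the gene lay toward the other end, at 1517, 1600 and 1942 bp, and that end was the inferred 5′ end. At IAA17 H3K4me3 lay at 432, 464 and 429 bp, near the inferred 5′ end, and total Pol II at 2619, 2561 and 2583 bp, at the other end of a 2586-bp gene. H2A.Z and H3K4me3 summits differed at 1 of 5 Aux/IAA genes fitted by limma, against 13.7% of 15555 genes. This was IAA1, at -1057 ± 35.1 bp (SE, limma adjusted p = 1.41e-05), for the same H3K4me3 summit in AARE. A lower H2A.Z peak of every library also had its summit in AARE, at 1239, 1230 and 1270 bp. The H3K4me3 summits stood beside it, at 1316, 1264 and 1331 bp. The difference at IAA1 thus rests on which H2A.Z peak was higher and does not show the marks apart. No Aux/IAA gene could be fitted for H3K4me1 against H3K4me3, where 92.4% of 9678 genes were called.

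Of the 10 genes, 6 stand in pairs with no other protein-coding gene between them, and partners differed. IAA2 and IAA7 (12510 bp apart) were the most alike in Pol II, with total Pol II percentiles of 96.4 and 92.4, but H2A.Z was called at IAA2 alone. IAA3 carried all Pol II forms, TBP and WDR5A-HA, and IAA17, 6388 bp away, had total Pol II as the one called feature of these, with Ser2P in 2 libraries and Ser5P in 1. IAA1 and IAA14 (10732 bp apart) both carried all Pol II forms, and H3K4me2 and H2A.Z were called at IAA1 and had no peak at IAA14.

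BTE1 and E2FA, partners at cell cycle genes, were called at none of the 10 genes, against 5.33% of all genes for BTE1 and 8.95% for E2FA. BTE1 had no peak in any library at any of them. E2FA had 1 peak, at IAA5 in replicate 1 (chr1:5365529-5365898, fold 2.11). Both proteins had peaks near IAA2 in all 3 libraries, 521 to 611 bp from the gene for BTE1 and 501 to 583 bp for E2FA, with summits in AT3G23020. They lay just outside the window, and with 1000 bp on each side IAA2 was called for both, as were 6.12% of all genes for BTE1 and 10.4% for E2FA.

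The receptor and ARF genes of the auxin pathway carried more of the body mark than the 10 Aux/IAA genes. All 6 TIR1/AFB receptor genes were called for H3K4me1, against 38.3% of all genes. So were 5 of 5 activating ARF genes and 6 of 7 repressing ARF genes (not ARF10). Of the 19 other Aux/IAA genes 6 were called, or 31.6%. The GH3 genes, which encode enzymes that conjugate auxin, resembled the 10 Aux/IAA genes in lacking H3K4me1 calls, with 0 of 7 called. Peaks in 1 or 2 libraries stood at 3 of these 7 genes and at 2 of the 10 Aux/IAA genes. Single H3K4me1 lists touched 42.2% to 45.3% of all genes. The receptor and ARF genes are longer, with medians of 2953, 5167 and 3773 bp for receptors, activating and repressing ARFs, against 1539 bp for the 10 Aux/IAA genes, 1907 bp for the 19 others and 2707 bp for GH3 genes. ARF5 was the activating ARF without WDR5A-HA, H3K4me3, TBP or any called Pol II form. ARF16 was the repressing ARF without TBP, and GH3.4 the GH3 gene not called for H2A.Z.

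**Figure D5:**
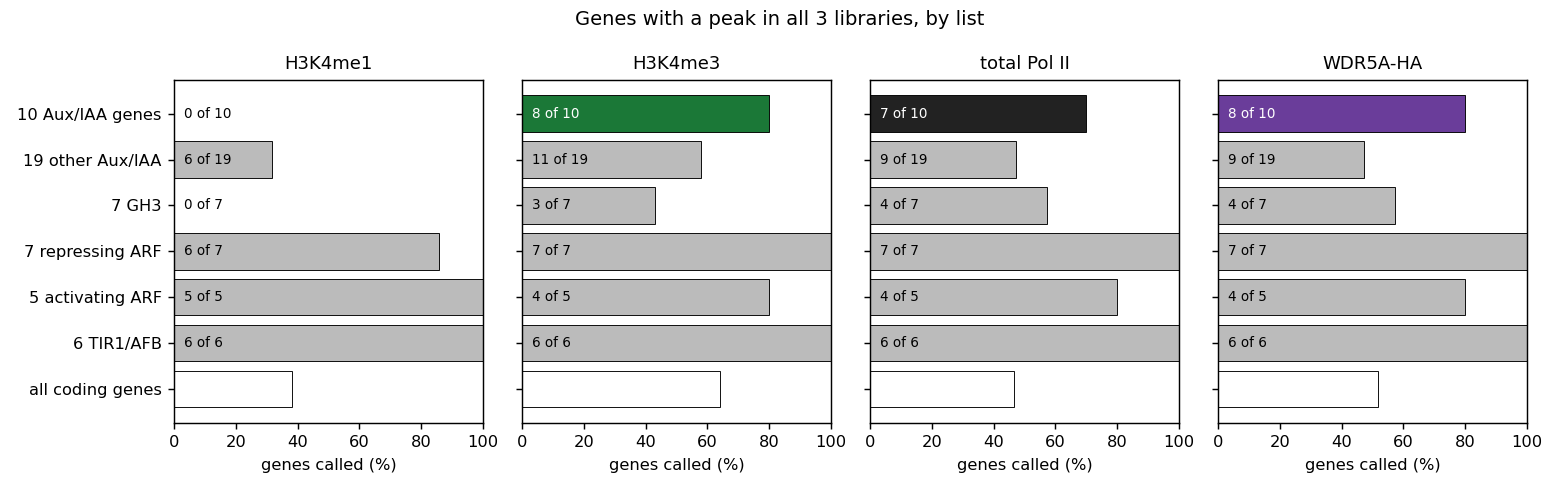
Share of genes called (x axis, percent) for H3K4me1, H3K4me3, total Pol II and WDR5A-HA (panels) in the 10 Aux/IAA genes (coloured), 5 other lists of auxin pathway genes (grey) and all 27444 genes (white), with counts in the bars. H3K4me1 reaches 0 of 10 Aux/IAA genes and 0 of 7 GH3 genes, and 6 of 6 receptor genes.

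In the other lists 0 of 44 genes were called for BTE1 or E2FA, against 5.33% and 8.95% of all genes. E2FA had peaks in 1 or 2 libraries at 7 of the 19 other Aux/IAA genes and 4 of 6 receptor genes. It had such peaks at 2 of 5 activating ARF, 2 of 7 repressing ARF and 2 of 7 GH3 genes. BTE1 had them at 1 receptor gene and 1 activating ARF gene. Single E2FA lists touched 15.8% to 26.6% of all genes. The share of all genes with peaks in only 1 or 2 libraries was not counted for either protein. These counts therefore do not show partial binding above that of other genes. The 19 other Aux/IAA genes had total Pol II at 9 (47.4%, against 46.7% of all genes) and WDR5A-HA at 9 (47.4%, against 51.8%). They had H3K4me3 at 11 (57.9%, against 64.1%) and H2A.Z at 15 (78.9%, against 80.2%). These shares are near those of all genes. The median H3K4me3 percentile of the 11 called was 62.3, against 15.1 over the 8 called among the 10 genes described here. For IAA1 and IAA14, which are among these 8, the peak has its summit in a neighbouring gene. The genes were grouped with earlier results of these data known, so the difference in medians was not tested.

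The genes whose profile over the 30 libraries was closest to the median of the 10 were ZPR1 (AT2G45450), MYB94 (AT3G47600), MUM2 (AT5G63800), and AT1G49200 with AT1G49205, which share their peaks. Likeness was the mean absolute difference of fold percentiles, counting 0 where there was no peak. It was 5.90 for ZPR1, 7.13 for MYB94, 7.31 for MUM2 and 7.40 for the pair, against a median of 27.5 over all genes. IAA14 was the nearest of the 10 to their own median, at 11.4, and IAA6 the farthest, at 27.1.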

How the data were processed

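Trimming with fastp, alignment to TAIR10 with Bowtie2 2.3.3 and peak calling with MACS2 2.2.5 are named in the submitters' processing notes. No source used here gives its control. Per library the authors deposited 1 list, with peak positions, a summit, a score, a fold (ratio to background), −log10 p and −log10 q. Deposited E2FA lists reach a p-value of 0.01 and other lists a q-value of 0.05.

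Gene bounds, not printed, are those of RefSeq's TAIR10.1 table. Its frame was checked with H3K4me3 summits (99.1% in genes, and 70.2% to 72.7% with genes moved by 1000 or 2000 bp). It holds no strand. The 5′ end was inferred where H3K4me3 (otherwise H2A.Z) summits lay below 0.4 or above 0.6 of the gene length in all 3 libraries, and 92.0% of 263 genes had the strand of their clone name. Planned sequence searches were not run, as no sequences were given.

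Folds are those of the highest-fold peak overlapping a window, and summit fits used the highest-fold peak with its summit (or midpoint) in the window. Summits were tested with limma 3.58.1 over all genes with both features, with Benjamini-Hochberg adjustment. Calls and fits were tested on simulated data. Named were all 10 genes, genes sharing their peaks, pathway genes called for BTE1 or E2FA or alone in their list in lacking a feature, and the 5 nearest profiles. The genes and lists were chosen with earlier results of these data known. Alternatives covered windows, overlap, peak score, number of libraries, list used, peak midpoint and leaving out replicates.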

Additional observations from a re-analysis of the deposited data

How the results depend on the processing

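Peak lists without read totals limit what can be said of weak or missing peaks. Of the member counts, median folds and summit-test counts recomputed under other settings, 180 stayed within 1.5 times the main count or 1 SD of the main median fold and 38 did not. With 1000 bp on each side the counts were 1 for BTE1, 1 for E2FA and 2 for H3K4me1 (47.1% of all genes), and the median folds were 3.92 for H3K4me2 and 4.22 for H2A.Z. H3K4me1 was called at 1 gene with peaks in at least 2 libraries (44.4%) and at 2 with the lists for the whole series (45.5%). With a replicate left out it was called at 0 to 1, the 1 being without replicate 3 (39.7%). With peaks above the median score, 5 genes were called for Ser5P (27.2%), 3 for Ser2P (28.4%), 3 for H3K4me2 (29.6%), 1 for H3K4me3 (31%) and 3 for H2A.Z (50.7%). Median folds were then 6.21 for total Pol II, 5.32 for Ser5P, 6.39 for Ser2P, 3.88 for H3K4me2, 7.90 for H3K4me3 and 4.28 for H2A.Z, since weak peaks were dropped. With summits required inside the gene, an alternative chosen after seeing the data, 3 genes were called for WDR5A-HA, 4 for total Pol II (18.9%) and 4 for Ser5P (17.5%), with median folds of 4.47, 7.58 and 4.57.

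The limma summit test called other numbers of genes under other rules. Ser2P against Ser5P gave 1267 genes with peak midpoints, 153 within gene bodies, 166 with a single peak per feature and 241 with peaks above the median score. H3K4me1 against H3K4me3 gave 3465 with a single peak and 2347 above the median score. H2A.Z against H3K4me3 gave 8539, 732, 495 and 1133 under those 4 rules, and WDR5A-HA against H3K4me3 gave 4083 within gene bodies, 2685 with a single peak and 2444 above the median score. Apart from the midpoints, these rules left fewer genes to fit. Midpoints turned the sign of Ser2P minus Ser5P at IAA2 (-86.7 bp, limma adjusted p = 0.102) and IAA4 (384 bp, limma adjusted p = 0.00263). They also turned that of WDR5A-HA minus H3K4me3 at IAA2 (-250 bp, limma adjusted p = 0.0331) and IAA14 (317 bp, limma adjusted p = 0.0188), where the H3K4me3 peak used in replicates 2 and 3 changed as well, and brought IAA2, IAA3, IAA17 and IAA19 past the threshold for H2A.Z. With a replicate left out, Ser2P minus Ser5P ranged from -16.5 bp to 3 bp at IAA4 (the positive value without replicate 3, limma adjusted p = 0.988) and from -276.5 bp to 743 bp at IAA14 (the negative value without replicate 1, limma adjusted p = 0.624), and the cause was not tested. Deviations of same-numbered libraries correlated by at most 0.0452. For Ser2P against Ser5P these correlations were all positive (0.0232 to 0.0452), and those of unlike numbers all negative (-0.0244 to -0.00879). Same-number correlations were also positive for H3K4me1 against H3K4me3, and mixed in sign for H2A.Z and WDR5A-HA against H3K4me3. Such weak values cannot settle whether the numbers pair the samples. With the replicate block the counts were 436, 8838, 1556 and 6438, and the same Aux/IAA genes were called.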
